A study of Mus musculus with 7 samples.

Results

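The genes described here encode 10 chaperones and proteases of mitochondria, namely *Hspd1*, *Hspe1*, *Hspa9*, *Trap1*, *Dnaja3*, *Grpel1*, *Clpp*, *Clpx*, *Lonp1* and *Afg3l2*. They were taken by name for their function, and all 10 were found among the 20927 genes of the count table. All 10 also passed the filter on low counts, which kept 13894 genes that reached 10 counts in 3 or more libraries. The samples were left ventricles of C57BL/6J mice, 3 of them WT and 4 homozygous for the A178D variant of titin, the giant spring protein of the sarcomere. The variant was put into the mouse *Ttn* gene by genome editing in embryonic stem cells from the C57BL/6N substrain, together with a silent change that makes a restriction site, and the line was then crossed to C57BL/6J, so that the A178D mice carry it in every tissue while WT mice do not. Neither group is stated to have been treated. The age and sex of these 7 animals are not given in the sources used here, and the labels name no batch.

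Most mitochondrial proteins are made in the cytosol and enter the organelle unfolded. In the matrix the Hsp70 protein mortalin (*Hspa9*) pulls in and folds the incoming chain, helped by the J protein *Dnaja3* and the nucleotide exchange factor *Grpel1*, and the barrel-shaped chaperonin Hsp60 (*Hspd1*) with its lid Hsp10 (*Hspe1*) encloses and folds many of these chains. Damaged or surplus proteins are degraded by ATP-driven proteases, which are *Lonp1* and the ClpXP complex (*Clpx*, *Clpp*) in the matrix and *Afg3l2* in the inner membrane. The heart is among the tissues richest in mitochondria, and several of these genes belong to the mitochondrial unfolded protein response, in which the organelle signals to the nucleus when its proteins misfold.

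After entries with identical counts had been reduced to a single entry, the WT libraries numbered 1, 3 and 4 held 51797208, 54245530 and 41102868 counts. The A178D libraries 1 to 4 held 40623300, 52345529, 42174448 and 33080675 counts. The lowest count of any of the 10 genes in any heart was 2527, for *Clpp*, so that the spread between hearts limited precision more than counting did. Levels are given as CPM, which relate counts to library sizes scaled by TMM. The comparison asks which of these transcripts differ between A178D and WT left ventricles. It used edgeR's quasi-likelihood test, adjusted by the Benjamini-Hochberg method over all 13894 genes, with an adjusted p under 0.05 as the call, and log2 fold changes are A178D over WT.

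*Hspe1* rose in A178D left ventricles, and it was the only member of the 10 to be called. Across all genes tested, 327 (2.35%) were called in either direction and 145 (1.04%) were called higher. Among the 10, 2 genes, *Hspe1* and *Clpx*, had an unadjusted p under 0.05, where 2326 genes (16.7%) of all those tested did. In 3 of the 10, *Hspe1*, *Grpel1* and *Clpx*, all 4 A178D hearts exceeded all 3 WT hearts, as was so for 1058 genes (7.61%) overall. The median log2 fold change of the 10 was 0.11 (0.074 with the length and GC offsets described below), and 9 of them were above 0, beside a median of 0.002 and 50.5% above 0 over all tested genes. No p was computed for the group of 10 as a whole. The lone value below 0 was that of *Trap1*. With the offsets *Hspa9*, at -0.01, was below 0 as well.

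**Figure D1:**
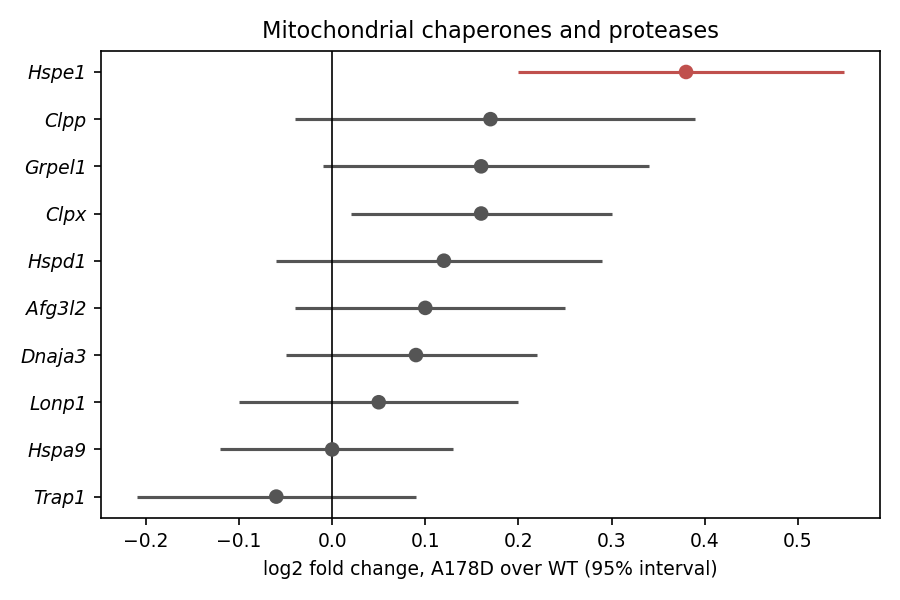
Log2 fold change of each of the 10 genes, A178D over WT, as points with 95% intervals (horizontal lines; 3 WT and 4 A178D hearts), with the gene called by edgeR in red. The interval of *Hspe1*, from 0.20 to 0.55, lies above 0, as does that of *Clpx*, from 0.02 to 0.30, while those of the other 8 genes include 0.

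*Hspe1* (ENSMUSG00000073676) lies on chromosome 1 from 55088132 to 55091307 (GRCm38, plus strand). It measured 79.3, 78.2 and 85.6 CPM in WT replicates 1, 3 and 4, and 109.0, 91.9, 107.4 and 112.6 CPM in A178D replicates 1 to 4. The genotypes did not overlap, and A178D replicate 2 was the A178D heart nearest to WT. The WT mean was 81.1 ± 4.02 CPM (SD, n = 3) and the A178D mean 105.2 ± 9.15 CPM (SD, n = 4). This was a log2 fold change of 0.38 with a standard error of 0.08, or 1.30-fold with a 95% interval of 1.15 to 1.46 (edgeR quasi-likelihood test, Benjamini-Hochberg adjusted p = 0.0274). Removing hearts singly left the log2 fold change of *Hspe1* between 0.34 and 0.44, but it was called in only 2 of these 7 fits. Its Benjamini-Hochberg adjusted p in the edgeR quasi-likelihood test was 0.158 without WT replicate 3, 0.0943 without A178D replicate 1, 0.074 without A178D replicate 3, 0.0734 without WT replicate 4 and 0.0516 without WT replicate 1. It was 0.0197 without A178D replicate 2 and 0.0339 without A178D replicate 4.

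*Hspd1* (ENSMUSG00000025980), whose product works together with that of *Hspe1*, lies beside it from 55077835 to 55088243 on the minus strand. It measured 473.9, 421.1 and 496.1 CPM in WT replicates 1, 3 and 4, and 498.2, 459.9, 556.8 and 495.8 CPM in A178D replicates 1 to 4. The genotypes overlapped, with A178D replicates 1 and 3 above the highest WT heart. For *Hspd1* the log2 fold change was 0.12 (standard error 0.08) and had a 95% interval from -0.06 to 0.29 (edgeR quasi-likelihood test, Benjamini-Hochberg adjusted p = 0.506). This value was 0.05 without WT replicate 3, 0.06 without A178D replicate 3 and 0.17 without WT replicate 4, and *Hspd1* was called in no fit with a heart left out. Whether *Hspe1* and *Hspd1* differed in their response was not tested. Per kilobase of exon, the ratio of *Hspe1* to *Hspd1* was 0.300, 0.333 and 0.309 in the 3 WT hearts and 0.392, 0.358, 0.346 and 0.407 in the 4 A178D hearts. The lowest A178D ratio thus lay above the highest WT ratio, by 0.346 to 0.333. The ratio of *Dnaja3* to *Hspa9* did not overlap either, at most 0.228 in WT and at least 0.232 in A178D hearts, but both were 0.229 with the length and GC trends described below removed. For *Grpel1* to *Hspa9* the highest WT and the lowest A178D ratio were both 0.172 after rounding, and for *Clpp* to *Clpx* the genotypes overlapped. These 4 ratios were looked at after the values of the genes were seen and are given as a description.

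Reads of the chaperonin pair carry an uncertainty of their own. The gene models of *Hspd1* and *Hspe1* point away from each other and share 112 bases at their starts. The libraries were stranded, but whether the counting used strand is not given in the sources used here, so reads within those 112 bases may not have been told apart. The annotation (GENCODE release M21) also names 5 pseudogenes of *Hspd1*, 6 of *Hspe1* and 1 of *Hspa9*. None of these 12 is listed in the count table, and reads from such copies, or reads that fit more than a single place, could have been counted for the parent gene or dropped.

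**Figure D2:**
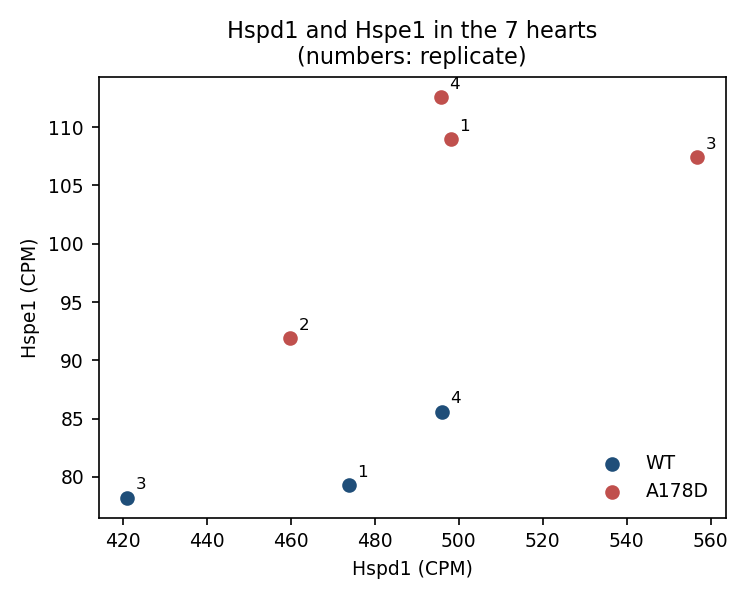
*Hspe1* against *Hspd1* in CPM, with a point for each left ventricle (3 WT, 4 A178D) and its replicate number beside it. The A178D hearts lie at 91.9 to 112.6 CPM of *Hspe1* and the WT hearts at 78.2 to 85.6 CPM, while their *Hspd1* values overlap; both axes start above 0.

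The chaperonin genes start head to head. RefSeq (GRCm38.p6) places the start of *Hspe1* at base 55088148 of chromosome 1 and the starts of *Hspd1* at 55088243 and 55087932, and only from the latter does the region upstream of *Hspd1* overlap that of *Hspe1*. Heat shock factor binds repeats of the unit GAA and its complement TTC in alternating orientation with 2 free bases between them. Windows from 250 bases before to 50 after each RefSeq start were searched for such repeats on both strands, a search chosen after the value of *Hspe1* was known. The *Hspe1* window holds a run of 4 units, 18 bases long, at chr1:55088059-55088076. This run ends 71 bases before the *Hspe1* start and also lies in 1 of the 2 *Hspd1* windows, 126 bases before that start. The window at chr1:55087898-55088197, plus strand, lies within the annotated *Hspd1* gene and reads as follows, with the 4-unit run in capitals.
Hspe1 promoter: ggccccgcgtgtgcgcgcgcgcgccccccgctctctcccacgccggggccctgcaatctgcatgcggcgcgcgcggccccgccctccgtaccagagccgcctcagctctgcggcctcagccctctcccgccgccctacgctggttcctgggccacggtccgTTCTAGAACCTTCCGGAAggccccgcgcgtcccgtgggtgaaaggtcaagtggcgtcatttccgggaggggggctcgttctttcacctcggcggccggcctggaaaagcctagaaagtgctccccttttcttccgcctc

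Of all 32851 windows, 15.1% hold 2 units (TTCNNGAA or GAANNTTC), 0.603% hold a run of 3 units and 0.0244%, or 8 windows, hold a run of 4, each longer run also counting among the shorter ones. Windows were given for 8 of the 10 genes, all but *Hspa9* and *Afg3l2*. Of these 8, *Clpp*, *Hspd1* and *Hspe1* hold 2 units, and *Hspd1* and *Hspe1* hold the longer runs. The run of 4 units is the same 18 bases in both. Counted by gene over any of its windows, 17.0% of 27025 genes hold 2 units, 0.662% a run of 3 and 0.0296% a run of 4. The letters TGATGCAA (or TTGCATCA), 1 form of a composite element of the factors CHOP and ATF4, are in 0.895% of all windows (1.03% of genes) and in none of the 8. An element of the nuclear respiratory factor NRF1, GCGCATGC (or GCATGCGC), is in 2.71% of all windows (3.05% of genes) and in those of *Clpx* and *Grpel1*. Both elements were searched as these exact letters only. Other forms of such sites were not looked for, so the 8 windows may hold them. Among the 61 tested genes with a run of 3 or more units, edgeR called 4 higher (*Hsph1*, *Uchl1*, *Lingo3* and *Hspe1*) and 2 lower (*Plscr4* and *Slc6a17*), and their median log2 fold change was 0.03. Called higher were thus 6.56% and called lower 3.28% of these genes, beside 1% (109) and 1.29% (140) of the 10860 tested genes whose windows hold no such run. With 2 units the shares called higher were 1.17% and, without them, 1.01%. Of the 6 tested genes with a run of 4 units, *Hspe1* alone was called (16.7%), and their median log2 fold change was 0.122. Without such a run 1.03% were called higher and 1.3% lower. None of these differences was tested, and *Hspe1*, whose value prompted the search, is among the 4 genes called higher. The 6 called genes named above were singled out after their values were seen, and binding of any factor was not measured.

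In the matrix Hsp70 system, no member was called. *Hspa9* (ENSMUSG00000024359, chromosome 18 from 34937414 to 34954357), the Hsp70 itself, measured 1036.0, 1008.9 and 1029.5 CPM in WT replicates 1, 3 and 4, and 1011.4, 1002.3, 1043.3 and 1051.5 CPM in A178D replicates 1 to 4. These were the closest groups of the 10 genes, with means of 1024.8 ± 14.1 (SD, n = 3) and 1027.1 ± 24.0 CPM (SD, n = 4). The log2 fold change of *Hspa9* was 0.00 with a 95% interval from -0.12 to 0.13, and its sign turned with the length and GC offsets described below and without some single hearts, within -0.01 to 0.02.

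*Grpel1* (ENSMUSG00000029198, chromosome 5 from 36464998 to 36474080), which releases ADP from the Hsp70, was nearly constant in WT hearts at 142.0, 142.0 and 143.4 CPM in replicates 1, 3 and 4. In A178D replicates 1 to 4 it measured 171.2, 143.9, 146.6 and 176.6 CPM. Every A178D heart was above the WT range, but replicates 2 and 3 lay close to it, and replicates 1 and 4 stood apart. The log2 fold change of *Grpel1* was 0.16 with a standard error of 0.08, a 95% interval from -0.01 to 0.34 and a Benjamini-Hochberg adjusted p of 0.334 in the edgeR quasi-likelihood test. This log2 fold change was 0.11 without A178D replicate 4.

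*Dnaja3* (ENSMUSG00000004069, chromosome 16 from 4639989 to 4707695), the J protein that stimulates the Hsp70 ATPase, ranged from 200.4 to 214.2 CPM in WT and from 211.4 to 229.9 CPM in A178D hearts, with 3 of 4 A178D hearts above the WT range. With a standard error of 0.06, its log2 fold change was 0.09. *Trap1* (ENSMUSG00000005981, chromosome 16 from 4039971 to 4077827), the mitochondrial Hsp90, ranged from 207.0 to 229.3 CPM in WT and from 196.3 to 217.0 CPM in A178D hearts. No A178D heart exceeded the WT range of *Trap1*, and its log2 fold change was -0.06 with a 95% interval from -0.21 to 0.09, reaching -0.02 without WT replicate 4 and -0.11 with the offsets. That of *Dnaja3* was 0.05 with the offsets.

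Among the proteases no gene was called either. *Clpx* (ENSMUSG00000015357, chromosome 9 from 65294260 to 65330658), the unfoldase that feeds substrates to ClpP, measured 120.9, 133.8 and 124.5 CPM in WT replicates 1, 3 and 4, and 142.6, 139.5, 144.4 and 137.7 CPM in A178D replicates 1 to 4. The genotypes did not overlap, and the A178D hearts varied little (141.0 ± 3.02 CPM, SD, n = 4). *Clpx* thus had a log2 fold change of 0.16 (standard error 0.07) and an unadjusted p of 0.0304, or 0.246 once Benjamini-Hochberg adjusted in the edgeR quasi-likelihood test.

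*Clpp* (ENSMUSG00000002660, chromosome 17 from 56990305 to 56996188), the proteolytic subunit, measured 54.3, 60.8 and 62.9 CPM in WT replicates 1, 3 and 4, and 65.4, 62.7, 59.2 and 80.5 CPM in A178D replicates 1 to 4. The highest A178D value, 80.5 CPM in replicate 4, stood apart from the other 3, and the lowest A178D heart lay below 2 of the WT hearts. With the length and GC trends described below removed, replicate 4 was at 67.7 CPM and the other 3 at 61.0 to 65.3 CPM. *Clpp* had a log2 fold change of 0.17 (standard error 0.10), which was 0.07 without A178D replicate 4.

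*Lonp1* (ENSMUSG00000041168, chromosome 17 from 56614297 to 56626887), the main soluble protease of the matrix, ranged from 196.9 to 213.6 CPM in WT hearts and measured 208.7, 204.8, 205.1 and 228.2 CPM in A178D replicates 1 to 4. The log2 fold change of *Lonp1* was 0.05 (standard error 0.07), and replicate 4 was the only A178D heart above the WT range, without which the value was 0.01. For *Lonp1* it was 0.08 without WT replicate 3, and 0.09 with the offsets and the replicate number as a block, both described below. *Afg3l2* (ENSMUSG00000024527, chromosome 18 from 67404764 to 67449172), a subunit of the m-AAA protease of the inner membrane, ranged from 198.8 to 225.7 CPM in WT and from 221.5 to 234.8 CPM in A178D hearts. Its log2 fold change was 0.10 with a 95% interval from -0.04 to 0.25, 0.06 without WT replicate 4 and 0.15 without WT replicate 1. With the offsets it was 0.14, and 0.16 with the block added. Once the length and GC trends were removed, *Afg3l2* ranged from 195.9 to 219.3 CPM in WT and from 221.5 to 239.8 CPM in A178D hearts.

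A pair of libraries differed from the rest in how counts depended on transcript length. Relative to the mean of all libraries, log2 levels changed by 0.085 for each doubling of length in WT replicate 1 and by -0.116 in A178D replicate 4, and by -0.027 to 0.02 in the other 5. For each 10% of GC content they changed by 0.11 in A178D replicate 4, -0.082 in WT replicate 4 and -0.073 in A178D replicate 1. The remaining libraries lay within -0.016 to 0.034. The trends used the length of the longest annotated transcript. By it *Hspe1* and *Clpp* are the shortest of the 10 genes, at 964 and 983 bases, and *Clpp* also has the highest GC content, 57.8%. The offsets remove both trends together, so length and GC content were not told apart. With offsets that remove the trend of each library with length and GC content, the log2 fold change of *Clpp* was 0.05 in place of 0.17. That of *Hspe1* was 0.27 in place of 0.38, and it was still called (edgeR quasi-likelihood test, Benjamini-Hochberg adjusted p = 0.0308, within 0.00104 to 0.0348 over the 10 alternatives other than leaving out a heart). With these trends removed, the ratio of *Hspe1* to *Hspd1* per kilobase was 0.324, 0.340 and 0.305 in WT and 0.378, 0.361, 0.349 and 0.384 in A178D hearts.

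Levels of different genes were compared as CPM per kilobase of exon, with the union of all annotated exons as the length. *Hspa9* was the most abundant at 238.1 as the mean of the 7 hearts, rank 166 of the 13894 tested genes. It was followed by *Hspd1* at 183.9, *Trap1* at 82.8, *Hspe1* at 64.4 and *Dnaja3* at 54.6. *Clpp* at 52.1, *Lonp1* at 47.7, *Grpel1* at 43.2, *Clpx* at 38.6 and *Afg3l2* at 22.5, rank 1810, came after them. *Hspa9*, *Hspd1* and *Afg3l2* were apart from their neighbours in every heart, whereas from *Trap1* through *Clpx* the ranges of each gene and the next overlapped. The *Hspe1* level was 55.0 ± 2.72 CPM per kilobase (SD, n = 3) for WT and 71.4 ± 6.21 (SD, n = 4) for A178D, so that its values reached down to those of *Dnaja3* in WT and up to the lowest of *Trap1* in A178D hearts. The order depends on the length used. By the longest annotated transcript, *Hspe1* moved from place 4 to place 3, *Afg3l2* from place 10 to place 8 and *Grpel1* from place 8 to place 10, the lowest.

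**Figure D3:**
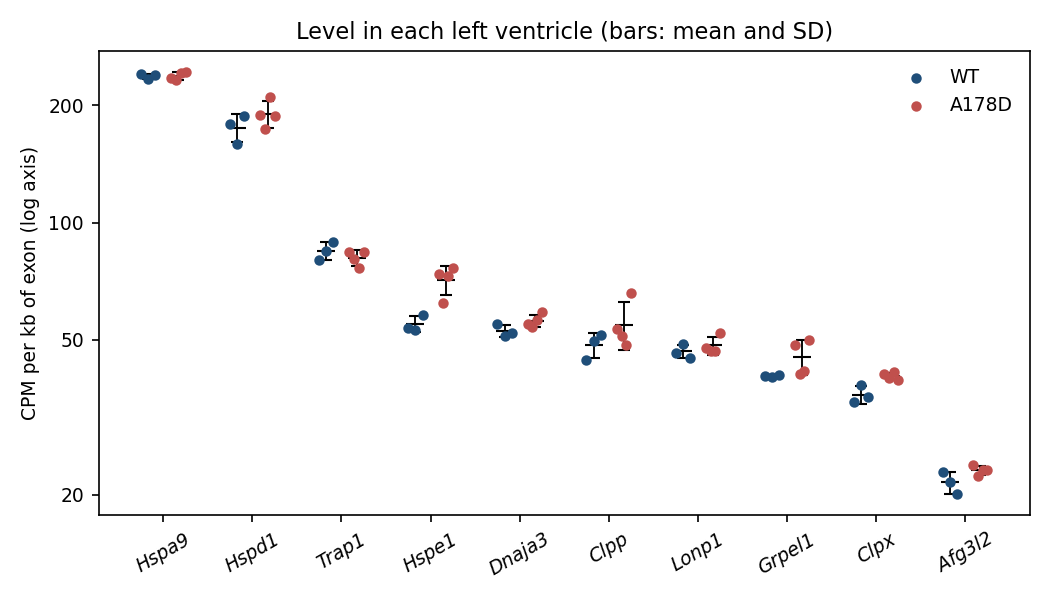
Level of each gene in CPM per kilobase of exon (log axis) in each left ventricle, WT in blue and A178D in red, with black bars for the mean and SD of each genotype. *Hspa9* lies highest, at 232.5 to 244.0, and *Afg3l2* lowest by this length, at 20.1 to 23.8, and the genotypes are apart for *Hspe1*, *Grpel1* and *Clpx*.

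Partners that work as a single machine were compared across the 7 hearts in 4 pairs, by correlation of log2 CPM with an exact two-sided permutation test. None of the 4 pairs passed after adjustment. *Hspd1* and *Hspe1* had a Pearson r of 0.69 (exact permutation p = 0.0706, 0.205 after Benjamini-Hochberg adjustment over the 4 pairs) and a Spearman rho of 0.61 (exact permutation p = 0.167, 0.333 adjusted). Without the 2 hearts farthest from the median of *Hspd1*, WT replicate 3 and A178D replicate 3, r was 0.51.

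*Hspa9* and *Dnaja3* had an r of 0.67 (exact permutation p = 0.102, 0.205 adjusted) and a rho of 0.75 (exact permutation p = 0.0663, 0.265 adjusted), with r at 0.57 without A178D replicates 2 and 4 and at 0.43 without replicate 4 alone. *Hspa9* and *Grpel1* had an r of 0.28 (exact permutation p = 0.471, 0.471 adjusted) and a rho of 0.46 (exact permutation p = 0.302, 0.403 adjusted), with r at -0.43 without the same 2 hearts. *Clpp* and *Clpx* had an r of 0.39 (exact permutation p = 0.4, 0.471 adjusted) and a rho of 0.21 (exact permutation p = 0.662, 0.662 adjusted), with r at -0.12 without WT replicate 1 and A178D replicate 4. Each r pools hearts of both genotypes, so a difference between genotypes shared by both genes enters it. Taken as deviations from the genotype means, with an exact permutation test within genotypes added after the values above were seen, r was 0.63 for *Hspd1* and *Hspe1* (p = 0.181, 0.361 adjusted) and 0.88 for *Hspa9* and *Dnaja3* (p = 0.0278, 0.111 adjusted). For *Hspa9* and *Grpel1* it was 0.31 (exact permutation p = 0.368, 0.491 adjusted) and for *Clpp* and *Clpx* -0.11 (exact permutation p = 0.764, 0.764 adjusted). With the length and GC trends removed, the pooled r of these 4 pairs was 0.67, 0.45, 0.11 and 0.12, in the same order. Without WT replicate 1 and with the trends left in, the pooled r of *Clpp* and *Clpx* was 0.01.

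Further genes of mitochondrial folding, proteolysis and import were read in the same fit. Of 39 such genes in 5 lists, all tested, none was called by edgeR, DESeq2 or limma-voom, 7 (17.9%) had an unadjusted p under 0.05, all with positive log2 fold changes, and the median log2 fold change was 0.093 with 30 above 0. Over all tested genes 16.7% had such a p, 7.93% with positive and 8.81% with negative log2 fold changes, which are the shares to set beside each list. With the length and GC offsets the median was 0.066, and *Tomm70a* was called, at 0.22 in place of 0.14. The 12 genes of the import channels of the outer and inner membranes all had log2 fold changes above 0, with a median of 0.138 and 4 (33.3%) unadjusted p under 0.05. They ran from *Timm21*, a subunit of the inner membrane translocase, at 0.02, to *Tomm5*, a small subunit of the outer membrane pore, at 0.28 (standard error 0.09), which was called only without A178D replicate 2. With the offsets *Tomm5* was at 0.14 (edgeR quasi-likelihood test, Benjamini-Hochberg adjusted p = 0.315, within 0.0515 to 0.315 over the same 10 alternatives). The import list then had a median of 0.099 and ran from 0.00 for *Tomm6* to 0.22 for both *Tomm70a* and *Timm17a*, these 3 named after their values were seen. *Timm21* turned sign without single hearts, within -0.01 to 0.07.

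The 3 scaffold genes of the inner membrane had a median log2 fold change of 0.168. The prohibitins *Phb* and *Phb2*, which form a ring around the m-AAA protease, were at 0.17 each (standard errors 0.08), with every A178D heart above the WT range in both. The related *Stoml2* was at 0.14. With the offsets their median was 0.093, with *Phb* at 0.09, *Phb2* at 0.12 and *Stoml2* at 0.08. Without A178D replicate 4, *Phb* was also at 0.09 and *Phb2* at 0.11, and *Stoml2* was at 0.07 without WT replicate 1. None of the 3 was called by edgeR, DESeq2 or limma-voom, and *Phb2* alone, 1 of 3, had an unadjusted p under 0.05.

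Among 9 further Hsp70 cofactors and other mitochondrial folding factors the median log2 fold change was 0.082, with 0 called by edgeR, DESeq2 or limma-voom and 1 (11.1%) unadjusted p under 0.05. *Dnlz*, which keeps the matrix Hsp70 soluble, was highest at 0.20 (standard error 0.11), but at 0.08 without A178D replicate 4. With the offsets the median was 0.061, and *Dnajc15* at 0.27 and *Hscb* at -0.10, both named after their values were seen, were highest and lowest. *Grpel2*, the paralog of *Grpel1*, was lowest at -0.02, against 0.16 for *Grpel1*, and turned sign with the offsets (0.00 after rounding) and without some single hearts (-0.07 to 0.02). The disaggregase *Clpb* was at 0.06, within 0.00 (without WT replicate 3) to 0.15 (without WT replicate 1).

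The 8 other proteases had a median of 0.020, with 0 called by any of the 3 tools and 1 (12.5%) unadjusted p under 0.05. Their log2 fold changes ran from -0.12 for *Spg7*, the partner subunit of *Afg3l2*, to 0.21 for *Lactb*, a serine protease of the intermembrane space (standard errors 0.07 and 0.09). *Yme1l1*, the inner membrane protease facing the other side, was at -0.04, and at 0.03 with the offsets. The offsets moved the median to 0.047 and the ends to *Oma1* at -0.14 and *Atp23* at 0.19, named after their values were seen. The 7 peptidases that process presequences had a median of -0.005 (-0.035 with the offsets), with 0 called by the 3 tools and 0 unadjusted p under 0.05. They ran from -0.05 for *Pitrm1* (-0.07 to -0.03 without single hearts) to 0.10 for *Pmpcb*.

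Transcripts of stress response regulators were read too, while the activity of their products and their control of the 10 genes were not measured. Of 10 regulators of mitochondrial and related stress responses, 0 were called by edgeR, DESeq2 or limma-voom, 1 (10%) had an unadjusted p under 0.05, and the median log2 fold change was -0.032. That gene was *Atf5*, a transcription factor of the mitochondrial unfolded protein response, which ranged from 45.0 to 50.3 CPM in WT and from 50.7 to 61.7 CPM in A178D hearts. The log2 fold change of *Atf5* was 0.23, standard error 0.08 (edgeR quasi-likelihood test, Benjamini-Hochberg adjusted p = 0.175), and every A178D heart lay above the WT range. For *Atf5* it was 0.16 with the offsets and 0.18 to 0.28 without single hearts. *Atf4*, *Ddit3* (CHOP) and *Hsf1*, the heat shock factor, were at -0.04, 0.06 and 0.01, and each turned sign under some alternative or without single hearts. *Cebpb* was lowest at -0.50 with a standard error of 0.25, and at -0.30 without WT replicate 4. It was called only with the replicate number as a block and the offsets together, at -0.58.

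Genes that stand for mitochondrial content had a median log2 fold change of -0.016 over 8 genes, or -0.053 with the offsets, with 0 called by edgeR, DESeq2 or limma-voom and 1 (12.5%) unadjusted p under 0.05. They ran from -0.09 for *Sdha*, a subunit of complex II (-0.04 to -0.13 without single hearts), to 0.23 for *Tfam*, the packaging and transcription factor of mitochondrial DNA. *Tfam* measured 53.0 ± 2.13 CPM (SD, n = 3) in WT and reached 62.1 ± 2.75 CPM (SD, n = 4) with the variant, and it was called only with the offsets (edgeR quasi-likelihood test, Benjamini-Hochberg adjusted p = 0.038, within 0.038 to 0.197 over the same 10 alternatives).

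Chaperones of other compartments gave a comparison for the matrix genes. Of 16 cytosolic chaperones, edgeR called 1, *Hsph1*, an Hsp110 that acts as exchange factor of cytosolic Hsp70, and the median log2 fold change was 0.121 (0.096 with the offsets). An unadjusted p under 0.05 was found for 6 (37.5%), 5 with positive and 1 with negative log2 fold changes. DESeq2 also called *Hsp90aa1* (0.40 with either tool), and limma-voom called *Hsph1* alone. With the offsets *Hspa4l* was called too, at 0.36 in place of 0.22. *Hsp90aa1* and *Hspa4l* were named after their values were seen. *Hsph1* rose from 48.0 ± 2.79 (SD, n = 3) to 87.7 ± 17.1 CPM (SD, n = 4), a log2 fold change of 0.87 with a standard error of 0.13 (edgeR quasi-likelihood test, Benjamini-Hochberg adjusted p = 0.00564). The Hsp70 *Hspa8*, relative of *Hspa9*, was at 0.18, the Hsp90 *Hsp90ab1*, relative of *Trap1*, at 0.20, and the J protein *Dnaja1* at 0.00, turning sign under several alternatives. *Hspa1b* was lowest at -0.55 with a standard error of 0.36, at -0.12 once WT replicate 1 was left out and -0.83 once A178D replicate 4 was, and its reads can be shared with its near-identical copy *Hspa1a*. That copy, whose value was added after it was seen, was at 0.14 (standard error 0.45), and at -0.05 with limma-voom.

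Of 12 chaperones of the endoplasmic reticulum, 0 were called by edgeR and by limma-voom, 3 (25%) had an unadjusted p under 0.05, all with negative log2 fold changes, and the median was -0.028, or -0.056 with the offsets. DESeq2 called these 3, *Canx*, *Dnajb9* and *Dnajc3*, lower, the first and last of them named after their values were seen. *Dnajb9* was lowest at -0.25 (standard error 0.07) and *Dnajb11* highest at 0.08 (0.03 to 0.13 without single hearts). The Hsp70 *Hspa5* was at -0.02, turning sign within -0.04 to 0.02 over single hearts left out and the other alternatives. The Hsp90 *Hsp90b1* was at 0.06, within 0.03 to 0.12 over the same fits.

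The labelled tissue was checked by markers. The 5 cardiomyocyte markers, led by *Myh6*, summed to 72633.7 to 77057.5 CPM in WT and 70450.5 to 75983.4 CPM in A178D hearts. Within this sum, named after their values were seen, *Myh6* lay below the WT range in all 4 A178D hearts (log2 fold change -0.11) and *Actc1* above it in all 4 (0.13). *Ryr2* was at -0.20, *Tnnt2* at -0.04 and *Pln* at -0.03. None of the 5 was called, and with the offsets *Myh6*, *Actc1* and *Ryr2* were at -0.05, 0.04 and -0.07. Of the 4 atrial markers, *Myl7*, *Sln* and *Bmp10* had at most 10 counts in every heart, as had *Myh4* and *Myh1* of 4 skeletal muscle markers and *Lep* of 4 adipocyte markers. The atrial sum, led by *Myl4*, was 1.89 to 2.05 CPM in WT and 2.22 to 4.21 CPM in A178D hearts, the skeletal muscle sum, led by *Tnni2*, 2.07 to 3.92 and 1.66 to 2.67 CPM, and the adipocyte sum, led by *Cidec*, 0.304 to 1.55 and 0.223 to 1.21 CPM. All 4 smooth muscle markers (*Myh11*, *Tagln*, *Acta2*, *Cnn1*) were called lower in A178D, and their sum, led by *Acta2*, was 431.4, 413.9 and 394.0 CPM in WT replicates 1, 3 and 4 and 219.8, 283.2, 294.9 and 271.0 CPM in A178D replicates 1 to 4.

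Macrophage markers, led by *Csf1r*, summed to 141.0 to 181.4 CPM in WT and 167.3 to 192.5 CPM in A178D hearts. Sums of the fibroblast markers, led by *Dcn*, were 674.7 to 742.0 and 712.8 to 819.5 CPM, those of the endothelial markers, led by *Kdr*, 752.7 to 909.9 and 802.9 to 855.4 CPM, and those of 3 haemoglobin genes, led by *Hbb-bs*, 84.2 to 93.9 and 75.7 to 128.0 CPM. Within these sums, *Col1a1* of the fibroblast markers ranged from 60.7 to 96.8 CPM in WT and from 102.6 to 117.3 CPM in A178D hearts (log2 fold change 0.45, standard error 0.12), called by DESeq2 and with the offsets but not by edgeR. The other 3 fibroblast markers did not follow it, with *Pdgfra* at -0.06, *Dcn* at 0.00 and *Tcf21* at 0.04. With the offsets these 3 were at 0.01, 0.07 and -0.02, in the same order, and *Col1a1* was at 0.51. *Adgre1* of the macrophage markers ranged from 12.9 to 14.6 and from 15.4 to 18.3 CPM (0.33, standard error 0.10), called by DESeq2 only, beside *C1qa* at 0.29, *Csf1r* at 0.09 and *Mrc1* at 0.08, none of them called. With the offsets *Adgre1* was at 0.32, *C1qa* at 0.19, *Csf1r* at 0.12 and *Mrc1* at 0.14. These markers were named after their values were seen. Whether cell makeup differed, and whether it enters the values of *Hspe1* and the other 9 genes, was not tested. In whole tissue, fewer cells of a type and less RNA per cell cannot be told apart.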

How the data were processed

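RNA from 3 WT and 4 A178D left ventricles was sequenced from both ends as stranded poly(A) libraries, and the authors deposited raw counts per Ensembl gene. The submitters' processing notes name bcl2fastq 2.18.0.12, HISAT2 2.1.0, SAMtools 1.6, DESeq2 1.26.0 and build GRCm38. The counting program and annotation are not given in the sources used here. A second deposited table, of counts divided by size factors, was not used here. Among counts from 1 to 20, 17.6 to 20.3% were odd, depending on the library, so most fragments probably entered the table as 2 counts.

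The table had 21257 entries. Sets of entries with identical counts (219 sets, 442 entries with at least 30 counts) were reduced to a single entry, which removed 223. A further 107 with fewer counts, repeating an identifier together with its counts, were also removed, leaving 20927, of which 69 had no symbol in GENCODE M21. Where a symbol kept 2 entries (*Dnajc19*, *Tomm5*, *Hbb-bs*), that with more counts was used. Tests used edgeR 4.0.16 in R 4.3.3 (TMM, glmQLFit, glmQLFTest, no covariate), with a biological coefficient of variation of 0.111; tested genes held 99.986% of counts. Alternatives were DESeq2 1.42.0, its size factors in edgeR, limma-voom (limma 3.58.1), no filter, at least 10 counts in every library, an adjusted p under 0.01, the table as deposited, halved counts, offsets against length and GC trends (mgcv 1.9.3, basis size 6), the replicate number as a block with and without the offsets, and leaving out each library. The pipeline was tested on simulated data.

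The members and lists were chosen with earlier results of these data known. Genes named are the 10 members, the called gene or genes and the highest and lowest of each other list, and relatives, partners and regulators set by name, with later choices marked in the text. Correlations and tables used Python 3.11.15, SciPy 1.17.1, NumPy 2.4.6 and pandas 2.3.3. Replicates are separate hearts.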

Additional observations from a re-analysis of the deposited data

Results flagged for a closer look

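In the 39 named genes, the 4 A178D hearts were searched for a value far from the other 3, measured as its gap to the nearest heart over the whole range. Chance gives about 1 such heart in 20 groups, or 1.95 in 39, and 3 were found. *Lonp1* in A178D replicate 4 was at 228.2 CPM while the other A178D hearts were at 204.8 to 208.7 CPM (gap over range 0.835). *Grpel2* in A178D replicate 1 was at 28.5 CPM, with the others at 26.3 to 26.5 CPM (0.872). *Clpb* in A178D replicate 3 was at 106.7 CPM, below the others at 119.2 to 120.1 CPM (0.929). The 3 values came from 3 different hearts, and with the length and GC trends removed the gap over range was 0.344 for *Lonp1*, 0.396 for *Grpel2* and 0.889 for *Clpb*. In that scale *Lonp1* was at 223.1 CPM, with the others at 204.4 to 216.7 CPM. The causes were not tested.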

How the results depend on the processing

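Over all genes, 145 were called higher and 182 lower. With DESeq2 these counts were 306 and 380, with the length and GC offsets 228 and 277, and at an adjusted p under 0.01 they were 24 and 40. With each library left out in turn they ranged from 22 (without WT replicate 3) to 215 (without WT replicate 1) and from 31 to 238, without the same libraries. Fewer samples enter those fits.

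*Hspe1* was called under 10 of 10 other settings, with log2 fold changes from 0.27 to 0.44, but not at an adjusted p under 0.01, where 0 of the 10 members were called and its log2 fold change is 0.38 as before. With each library left out, 0 to 1 members were called, the log2 fold change of *Hspe1* ranged from 0.34 to 0.44, and 1 to 3 members had an unadjusted p under 0.05, beside 2 with all libraries. That number was 4 with the offsets and 4 with the block and offsets together. The share of all tested genes with such a p is not given here for these other fits, so their counts cannot be set beside it. More genes were called over all with the offsets too, 228 higher and 277 lower. No other member was called under any alternative.

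Same-numbered hearts of the 2 genotypes did not deviate together, with correlations of 0.003, -0.04 and -0.042 in their deviations from the group means. With so few hearts this cannot show whether the numbers mark pairs, and the labels do not say. With the replicate number as a block over libraries 1, 3 and 4, 126 genes were higher and 146 lower. These fits also drop A178D replicate 2. The log2 fold change of *Hspe1* was 0.44, that of *Hspa5* 0.01 and that of *Dnaja1* 0.05, as they were without that heart and with no block. Block and offsets together gave 186 higher and 179 lower, *Grpel2* 0.02, *Yme1l1* 0.04, *Hspa5* 0.02, *Dnaja1* 0.14, *Ddit3* -0.05 and *Hsf1* -0.00.

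Signs also turned among uncalled genes near 0. With the offsets, log2 fold changes were -0.01 for *Hspa9*, 0.00 for *Grpel2*, 0.03 for *Yme1l1*, 0.08 for *Dnaja1*, -0.05 for *Ddit3* and -0.01 for *Hsf1*, and limma-voom gave -0.00 for *Hsf1*. Without single libraries the ranges were -0.01 to 0.02 for *Hspa9*, -0.07 to 0.02 for *Grpel2*, -0.09 to 0.04 for *Yme1l1*, -0.01 to 0.07 for *Timm21*, -0.06 to 0.05 for *Dnaja1*, -0.04 to 0.01 for *Hspa5*, -0.13 to 0.03 for *Atf4*, -0.05 to 0.14 for *Ddit3* and -0.05 to 0.05 for *Hsf1*. The correlation of *Hspa9* and *Grpel1* ranged from -0.24 (without A178D replicate 4) to 0.62, and that of *Clpp* and *Clpx* was -0.11 in deviations from genotype means. That of *Hspa9* and *Dnaja3* ranged from 0.43 (without A178D replicate 4) to 0.78, and that of *Clpp* and *Clpx* from 0.01 (without WT replicate 1) to 0.59. The cause was not tested.

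By the longest transcript, levels per kilobase were 336.5 for *Hspa9*, 200.6 for *Hspd1*, 98.4 for *Hspe1*, 91.8 for *Trap1*, 80.7 for *Dnaja3*, 64.8 for *Clpp*, 47.5 for *Afg3l2*, 46.7 for *Clpx*, 47.8 for *Lonp1* and 43.2 for *Grpel1*, with only the length changed. Of the 29 other named genes, *Dnajb9* was also called by DESeq2 and with the offsets, *Tfam* with the offsets, *Cebpb* with block and offsets, and *Tomm5* without A178D replicate 2. *Hsph1* was called in every fit with a library left out. Depth limits low genes most, and the 10 members had at least 2527 counts in each library.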
